A study of Mus musculus with 8 samples.

Results

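Potassium channel genes were taken from the RNA-seq count table of hearts of WT and whole-body TIGAR knockout (TKO) mice as every gene whose symbol starts with Kcn followed by letters and a number, with pseudogenes and antisense transcripts left out and with a count in any library. This gave 74 genes of the 16964 with a count, pore-forming subunits together with the accessory subunits that carry the same prefix (*Kcne*, *Kcnip*, *Kcnab*, and *Kcnmb*). The 8 libraries hold 1 library for each of the 2 genotypes in each of 4 regions: left ventricle, infarct zone, border zone, and remote zone. All mice were male, and the zones came from hearts that underwent MI by permanent ligation of the left anterior descending artery at 16 weeks of age and were collected 4 weeks later. TKO mice lack TIGAR in the whole body, so genotype differences are not limited to cardiomyocytes. RNA of 3 mice was pooled for each infarct zone library, the pooling of the other libraries is not stated, and the left ventricle is given as the normal reference without a statement on sham surgery. Total estimated counts ranged from 27429240 to 33799249 per library. *Tigar* itself had 1066 to 2215 counts in the WT libraries and 51 to 87 in the TKO libraries.

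Potassium channels let the cardiomyocyte return to its resting potential after each beat, and the mouse ventricle relies on fast transient outward and delayed rectifier currents for its short action potential, on inward rectifiers for its resting potential, and on ATP-sensitive and leak channels that follow metabolism and pH. Each channel is built from pore subunits that are joined by accessory subunits, which set how much current reaches the membrane and how it opens and closes. Loss of transient outward and inward rectifier currents is a known feature of the diseased ventricle, and other potassium channels serve leukocytes, fibroblasts, smooth muscle, and nerve cells that the same tissue holds.

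Since tissue was sequenced in bulk, fewer cells of a type and less RNA per cell cannot be told apart. Levels are given as CPM, counts scaled to a common library size (per-million units) after the library totals were scaled by TMM. The TMM factor was 1.54 in the WT and 1.26 in the TKO infarct zone against 0.866 to 0.956 in the other 6 libraries. Counts, printed for genes with few reads, are unscaled and so run high in the infarct zone libraries. The summed level of 8 cardiomyocyte markers was 8191 CPM in the WT and 17947 CPM in the TKO infarct zone, against 27935 to 40851 CPM elsewhere, and each of the 8 was lower in the infarct zone than in the left ventricle of the same genotype. In contrast, 6 fibroblast markers summed to 5751 and 4798 CPM in the WT and TKO infarct zone and to 738 to 2158 CPM elsewhere, and 8 leukocyte markers to 1251 and 939 CPM against 225 to 453 CPM. None of the markers of these lists was at the floor in all libraries. Both remote zone libraries were the highest in 3 of 4 atrial muscle genes. *Myl7*, the atrial myosin light chain, was at 172 CPM in the WT and 67.5 CPM in the TKO remote zone and between 1.23 and 16.1 CPM in the other 6 libraries, and *Sln* (sarcolipin) was at 80.9 and 24.4 CPM against 0.28 to 7.09 CPM. *Myl4*, another atrial myosin light chain, had the same order, at 279 and 110 CPM against 4.95 to 34.6 CPM. The fourth, *Nppa*, the atrial natriuretic peptide gene that stressed ventricle also expresses, was highest in the WT (2987 CPM) and TKO (2086 CPM) infarct zone, compared with 1962 and 489 CPM in the remote zone. Comparisons with the remote zone are therefore given beside those with the left ventricle.

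Promoter windows are shown for 2 subunits of the fast transient outward channel that fell together in the infarct zone (*Kcnip2* and *Kcnd2*) and for 2 genes of the opposite direction (*Kcne4* and *Kcnj15*). Each window holds 250 bases before and 50 bases from the RefSeq start site on GRCm38.p6, written 5′ to 3′ on the strand of the gene. Capitals mark GC boxes (GGGCGG) and E-boxes (CANNTG), searched on both strands, and no 2 of the marked motifs overlapped.
Kcnip2 (chr19:45816014-45816313, minus strand): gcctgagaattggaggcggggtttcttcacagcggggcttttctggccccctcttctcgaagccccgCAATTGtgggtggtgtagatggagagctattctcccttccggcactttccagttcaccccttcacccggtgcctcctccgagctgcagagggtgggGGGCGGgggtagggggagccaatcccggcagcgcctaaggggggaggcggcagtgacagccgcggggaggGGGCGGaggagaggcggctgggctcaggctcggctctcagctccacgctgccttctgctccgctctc
Kcnd2 (chr6:21215096-21215395, plus strand): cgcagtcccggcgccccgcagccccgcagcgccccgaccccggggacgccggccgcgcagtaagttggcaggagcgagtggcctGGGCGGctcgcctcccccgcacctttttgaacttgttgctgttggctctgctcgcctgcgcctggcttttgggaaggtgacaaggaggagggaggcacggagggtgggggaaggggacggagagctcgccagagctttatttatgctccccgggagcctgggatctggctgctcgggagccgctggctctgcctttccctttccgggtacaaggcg
Kcne4 (chr1:78816661-78816960, plus strand): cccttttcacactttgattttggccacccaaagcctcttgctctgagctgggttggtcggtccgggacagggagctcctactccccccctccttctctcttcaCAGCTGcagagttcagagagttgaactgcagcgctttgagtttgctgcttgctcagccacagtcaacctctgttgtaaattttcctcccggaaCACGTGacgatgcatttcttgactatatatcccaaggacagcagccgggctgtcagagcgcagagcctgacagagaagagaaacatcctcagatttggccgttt
Kcnj15 (chr16:95257308-95257607, plus strand): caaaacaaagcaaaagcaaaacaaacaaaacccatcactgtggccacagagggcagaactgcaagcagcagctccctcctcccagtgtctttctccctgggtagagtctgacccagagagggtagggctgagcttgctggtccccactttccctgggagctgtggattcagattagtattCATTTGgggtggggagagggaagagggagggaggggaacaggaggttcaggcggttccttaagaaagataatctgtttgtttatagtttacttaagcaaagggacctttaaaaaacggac
The *Kcnip2* window had 2 GC boxes and 1 E-box, and the *Kcnd2* window 1 GC box and no E-box. The *Kcne4* window had 2 E-boxes and the *Kcnj15* window 1, and neither had a GC box. Other genes did not split in this way. Among genes that fell in the infarct zone, the GC box was present for *Kcnj2* and *Kcnh2* and absent for *Kcnd3* and *Kcnj12*. Among genes that rose, it was present for *Kcnab2* and absent for *Kcnab1* and *Kcnt2*. Of all 32851 mouse promoter windows of this length, 35.7% held the GC box and 72.3% the E-box, so the E-box letters are common. The GC content was 67.0% for *Kcnip2* and 68.7% for *Kcnd2*, and 52.7% for *Kcne4* and 49.7% for *Kcnj15*, with a median of 52.7% over all windows. A window was found for 53 of the 74 genes, of which 25 held the GC box and 39 the E-box. The start sites lay 2 bases (*Kcnip2*), 157 bases (*Kcnd2*), 153 bases (*Kcne4*), and 0 bases (*Kcnj15*) from the first base of the gene in GENCODE. A motif match describes the letters only.

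Of the 74 genes, 52 were above 3 counts in all 8 libraries and 12 were at 0 in at least 1. A mean of at least 1 CPM was reached by 40 genes, and these were tested together with all 12999 genes at that level. Per kilobase of the longest annotated transcript, *Kcnk3*, the acid-sensitive tandem-pore leak channel, was the highest in the WT left ventricle at 69.7 CPM per kilobase, followed by *Kcnip2* at 61.0, *Kcng2* at 32.6, *Kcnh2* at 15.5, *Kcna5* at 13.3, *Kcnj3* at 10.7, *Kcnj5* at 10.6, *Kcnq1* at 9.81, *Kcnj12* at 9.17, and *Kcnj2* at 4.73 CPM per kilobase. The order of the pairs that lie close, such as *Kcnj3* and *Kcnj5*, cannot be resolved from 1 library, and with the median transcript length *Kcnip2* came before *Kcng2* and *Kcnk3*.

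In the infarct zone, some potassium channel genes were lower and others higher than in the left ventricle. Against the left ventricle, 25 of the 40 tested genes passed edgeR's quasi-likelihood test at an adjusted p under 0.05, with 10 higher and 15 lower. Over all genes tested, 56.8% passed, 28.2% higher and 28.6% lower, beside 62.5% and, in the lower direction, 37.5% of the 40 genes. The median log2 difference was -0.49 for the 40 genes and 0.02 for all genes. It was -0.74 in WT and -0.27 in TKO when the genotypes were compared apart, and all 25 genes had the same direction in both genotypes. Both infarct zone libraries lay below all other 6 for 17 of the 40 genes and above them for 11, compared with 31.1% and 32.9% of all genes. Against the remote zone, 24 genes passed, 8 higher and 16 lower (49.5%, 24.6%, and 24.8% of all genes), and 23 of them were among the 25. The tests treat the genotypes as replicates and bear on these libraries, not on mice. Under scaling by total counts alone, the median log2 difference of all genes was 0.71 against the left ventricle and 0.66 against the remote zone. The split of the 40 genes became 15 higher and 12 lower, and 11 higher and 13 lower, in the same order. Of all 12999 genes, 8953 passed against the left ventricle in that setting, 7869 of them higher. For the remote zone, 8623 passed, 7705 of them higher.

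**Figure D1:**
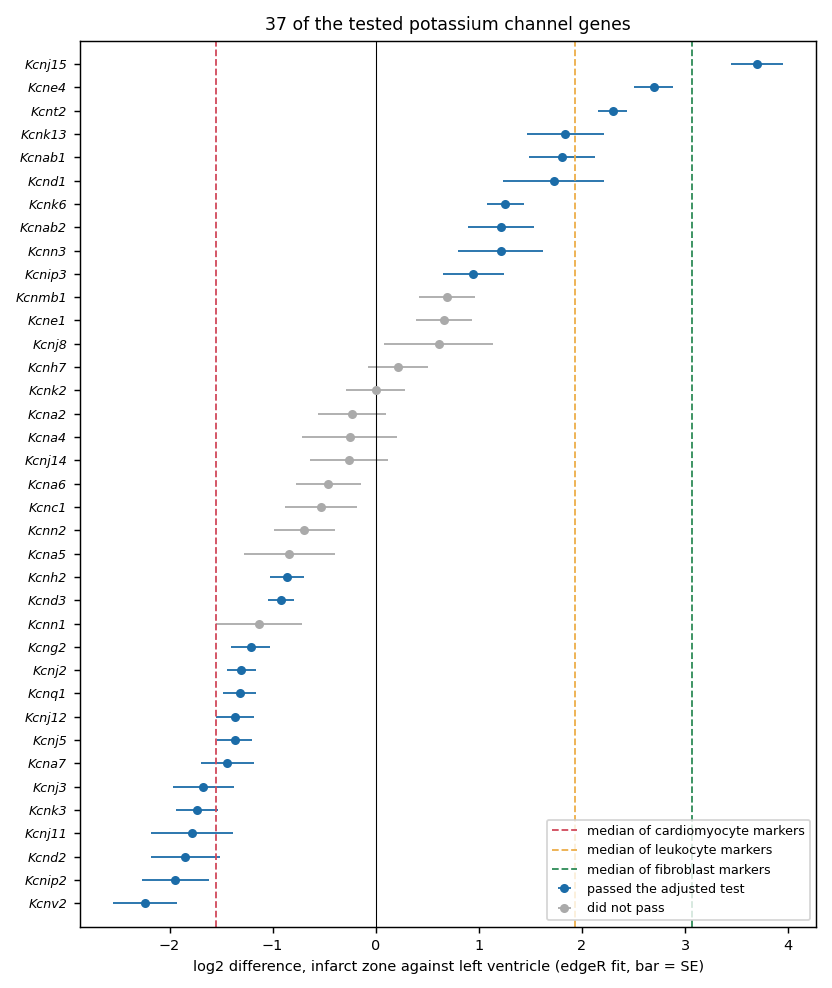
37 of the 40 tested potassium channel genes by their fitted log2 difference between infarct zone and left ventricle (x axis, points with standard errors; blue, passed the adjusted edgeR test), with dashed lines at the median log2 difference of the cardiomyocyte (-1.55), leukocyte (1.93), and fibroblast (3.07) markers. The genes run from *Kcnv2* at -2.23 to *Kcnj15* at 3.69.

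The genes of the fast transient outward current fell in the infarct zone, and the falls of *Kcnip2* and *Kcnd2* differed by less than their standard errors. *Kcnip2*, a calcium-binding subunit without which this current is lost in mouse ventricle, was at 190.0 CPM in the WT and 179.7 CPM in the TKO left ventricle, at 29.3 and 75.6 CPM in the infarct zone, at 117 and 169 CPM in the border zone, and at 139 and 179.6 CPM in the remote zone. Both infarct zone libraries lay below the other 6, and the WT infarct zone was the lowest of all. The infarct zone held 0.154 of the left ventricular level in WT (95% interval from counting error, 0.145 to 0.164) and 0.421 in TKO (0.401 to 0.442), a fitted log2 difference of -1.94 (SE 0.32, edgeR adjusted p = 0.0032). *Kcnd2*, the pore subunit of the same current, was at 19.6 (WT) and 21.2 (TKO) CPM in the left ventricle, 3.21 and 9.09 CPM in the infarct zone, 14.1 and 23.7 CPM in the border zone, and 19.1 and 21.2 CPM in the remote zone. Its infarct zone libraries also lay below the other 6, and its highest library was the TKO border zone. *Kcnd2* fell by 1.85 on the log2 scale (SE 0.33, edgeR adjusted p = 0.0042). *Kcnd3*, a second pore subunit, fell by 0.92 (SE 0.12, edgeR adjusted p = 0.0018) from 13.3 and 14.4 CPM in the WT and TKO left ventricle to 6.38 and 8.36 CPM. *Kcnd3* did not pass with total counts alone.

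Other genes of this family did not follow. *Kcnd1*, a pore subunit of the same family, rose by 1.72 (SE 0.49, edgeR adjusted p = 0.023). It was at 0.766 (WT) and 0.656 (TKO) CPM in the left ventricle (21 and 17 counts). In the infarct zone it was at 3.10 and 1.76 CPM (131 and 63 counts). *Kcnip3*, a calcium-binding protein that also acts as a transcriptional repressor, rose by 0.95 (SE 0.30, edgeR adjusted p = 0.034) but not against the remote zone (0.55, edgeR adjusted p = 0.16). *Kcna4*, the pore subunit of the slow transient outward current, had 19 to 55 counts per library and a log2 difference of -0.25 (SE 0.46). *Kcnip1* and *Kcnip4* stayed under 1 CPM in every library.

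**Figure D2:**
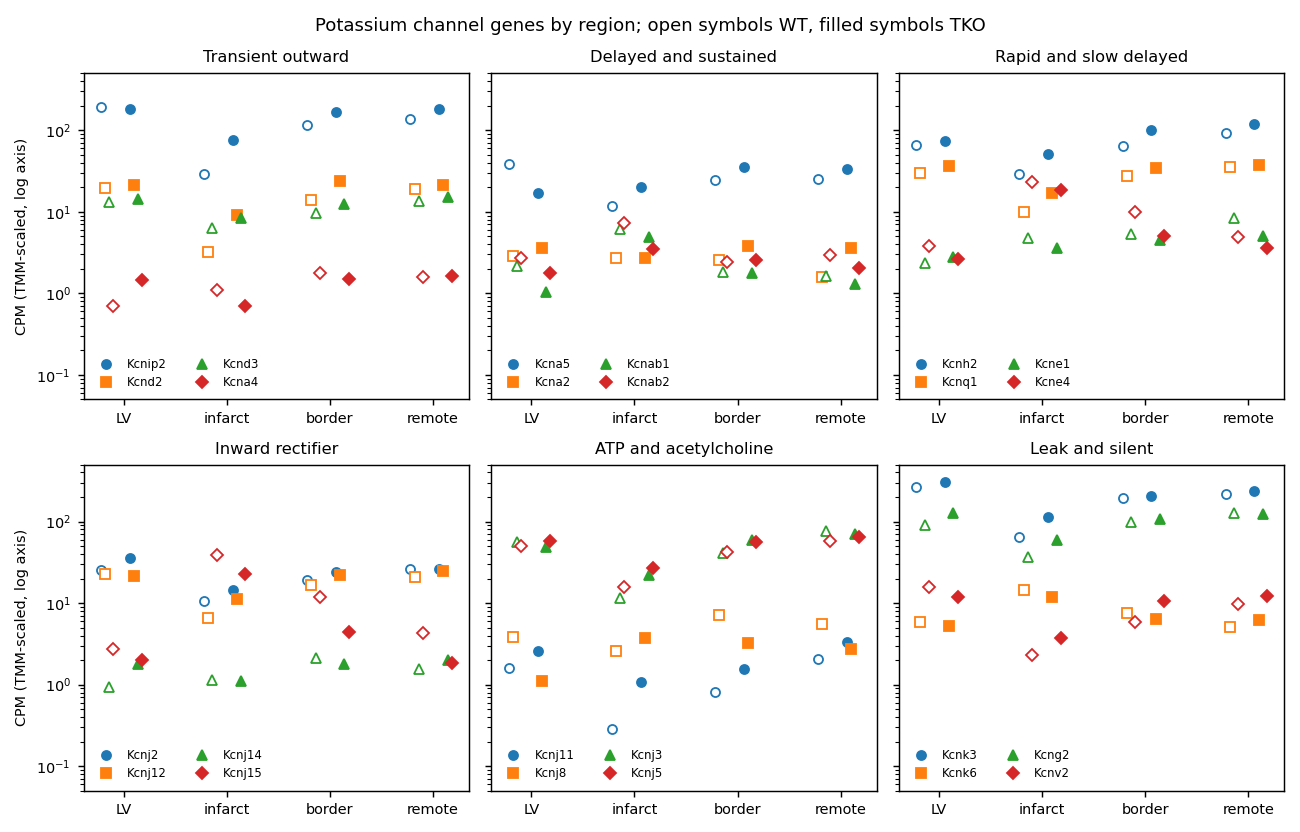
Levels of potassium channel genes in CPM (y axis, log scale) in the 4 regions (x axis; LV, left ventricle), in 6 panels by current, with open symbols for the WT and filled symbols for the TKO library and no error bars since each point is 1 library. *Kcnip2*, *Kcnd2*, *Kcnk3*, and *Kcng2* are lowest in the infarct zone, where *Kcnj15* and *Kcne4* are highest.

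For the slow delayed and sustained currents of the mouse ventricle, the accessory subunits *Kcnab1* and *Kcnab2* rose and the pore subunits showed no common direction. *Kcna5*, the pore subunit of the ultrarapid delayed current, was at 38.1 CPM in the WT and 17.0 CPM in the TKO left ventricle, 11.8 and 20.1 CPM in the infarct zone, 24.3 and 35.1 CPM in the border zone, and 25.3 and 33.3 CPM in the remote zone. Its highest library was thus the WT left ventricle, and the TKO left ventricle lay below both border and both remote zone libraries, so regions overlapped. The infarct over left ventricle ratio was 0.309 for WT (0.277 to 0.344) and 1.18 for TKO (1.05 to 1.34), and the fitted difference of -0.84 (SE 0.44) did not pass (edgeR adjusted p = 0.15). *Kcna2* ranged from 1.58 to 3.81 CPM (-0.23, SE 0.33). *Kcna7*, a pore subunit of striated muscle, fell by 1.44 (SE 0.25, edgeR adjusted p = 0.0040), from 5.58 and 6.45 CPM in the WT and TKO left ventricle to 1.68 and 2.85 CPM. The beta subunits *Kcnab1* and *Kcnab2*, which bind the inner face of the channel, rose by 1.80 (SE 0.32, edgeR adjusted p = 0.0040) and 1.22 (SE 0.32, edgeR adjusted p = 0.018). *Kcnab1* was at 2.19 (WT) and 1.04 (TKO) CPM in the left ventricle and 6.15 and 4.87 CPM in the infarct zone. It was at 1.30 to 1.82 CPM in the other 4 libraries, so the infarct zone stood above the rest. *Kcnab2* was at 2.74 and 1.78 CPM in the WT and TKO left ventricle and 7.30 and 3.47 CPM in the infarct zone. It was at 2.06 to 2.96 CPM in the border and remote zones.

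The rapid and slow delayed rectifier genes fell and an inhibitory accessory subunit rose. *Kcnh2*, the pore of the rapid delayed rectifier, was at 65.6 and 74.8 CPM in the WT and TKO left ventricle, 29.1 and 50.9 CPM in the infarct zone, 64.3 and 101 CPM in the border zone, and 92.8 and 118 CPM in the remote zone. The TKO library was the higher of the pair in each region, and both infarct zone libraries lay below the other 6. *Kcnh2* fell by 0.86 in the infarct zone against the left ventricle (SE 0.17, edgeR adjusted p = 0.0054) and by 1.43 against the remote zone (SE 0.17, edgeR adjusted p = 0.0021). It did not pass against the left ventricle with total counts alone. *Kcnq1*, the pore of the slow delayed rectifier, fell by 1.32 (SE 0.16, edgeR adjusted p = 0.0014) from 29.7 and 36.1 CPM to 10.02 and 16.8 CPM. Its partner *Kcne1* moved otherwise: it was at 2.37 and 2.82 CPM in the left ventricle, 4.82 and 3.55 CPM in the infarct zone, 5.35 and 4.55 CPM in the border zone, and 8.35 and 4.98 CPM in the remote zone, with the left ventricle below all other libraries and no test passed in the infarct zone (0.66, SE 0.27, edgeR adjusted p = 0.079).

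*Kcne4*, an accessory subunit that inhibits the slow delayed rectifier and several other channels, was at 3.83 (WT) and 2.66 (TKO) CPM in the left ventricle, 23.3 and 18.3 CPM in the infarct zone, 9.87 and 5.06 CPM in the border zone, and 4.90 and 3.62 CPM in the remote zone. Levels were highest in the infarct zone and next highest in the border zone in both genotypes. The infarct over left ventricle ratio was 6.08 for WT (4.97 to 7.51) and 6.87 for TKO (5.35 to 8.93), and the fitted log2 difference was 2.69 (SE 0.19, edgeR adjusted p = 0.00034). *Kcne3*, another accessory subunit, had 34 and 17 counts in the WT and TKO infarct zone and 1 to 8 counts elsewhere. *Kcne2*, a partner of *Kcnh2*, had 19 and 28 counts in the infarct zone, against 0 to 4 elsewhere. *Kcne1l* (*Kcne5*) had 6 to 22 counts per library, with the highest in the TKO infarct zone. These 3 genes were under the level for testing.

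The inward rectifier genes that set the resting potential fell in both genotypes. *Kcnj2*, their main ventricular pore subunit, was at 25.8 and 35.5 CPM in the WT and TKO left ventricle, 10.5 and 14.3 CPM in the infarct zone, 19.0 and 24.4 CPM in the border zone, and 26.2 CPM in both remote zone libraries. The infarct zone held 0.408 of the left ventricular level in WT (0.362 to 0.4604) and 0.402 in TKO (0.360 to 0.449), so the genotypes differed by less than the counting error, and the fitted fall was by 1.30 (SE 0.14, edgeR adjusted p = 0.00097). *Kcnj12*, the second pore subunit, fell by 1.36 (SE 0.19, edgeR adjusted p = 0.0019) from 22.6 and 21.8 CPM to 6.59 and 11.2 CPM. *Kcnj14* (26 to 65 counts) had a difference of -0.26 (SE 0.38), and *Kcnj4* stayed between 8 and 34 counts.

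Outside this current but in the same protein family, *Kcnj15*, an inward rectifier best known from kidney and other epithelia, had the highest fitted log2 difference of the 40 tested genes. It was at 2.70 (WT) and 2.01 (TKO) CPM in the left ventricle, 38.9 and 22.8 CPM in the infarct zone, 12.0 and 4.42 CPM in the border zone, and 4.27 and 1.83 CPM in the remote zone. In each region the TKO library was the lower, and both infarct zone libraries lay above the other 6. The infarct over left ventricle ratio was 14.4 in WT (11.4 to 18.5) and 11.3 in TKO (8.56 to 15.3), a fitted difference of 3.69 (SE 0.25, edgeR adjusted p = 0.00034). *Kcnj10*, of the same subfamily, had 38 and 31 counts in the WT and TKO infarct zone (0.898 and 0.867 CPM). It had 5 to 14 counts elsewhere (0.193 to 0.454 CPM).

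The ATP-sensitive channel, which opens as the energy state of the cell falls, showed different patterns for its pore subunits. *Kcnj11*, the pore of the cardiomyocyte channel, had 44 (WT) and 67 (TKO) counts in the left ventricle, 12 and 38 in the infarct zone, 25 and 46 in the border zone, and 63 and 99 in the remote zone. The TKO count was the higher in each region and the WT infarct zone the lowest library. The infarct over left ventricle ratio was 0.177 for WT (0.0849 to 0.340) and 0.411 for TKO (0.268 to 0.621), and *Kcnj11* fell by 1.78 (SE 0.40, edgeR adjusted p = 0.0098). Its regulatory partners *Abcc9* and *Abcc8*, the sulfonylurea receptors, fell by 1.39 each (edgeR adjusted p = 0.0038 and 0.0080). *Abcc9* was at 310 CPM in the WT left ventricle, 82.3 CPM in the WT and 162 CPM in the TKO infarct zone. *Kcnj8*, the pore subunit of vascular smooth muscle and pericytes, had 104 and 29 counts in the WT and TKO left ventricle, 108 and 133 in the infarct zone, 221 and 96 in the border zone, and 170 and 82 in the remote zone. In CPM, the infarct zone was below the left ventricle in WT (2.55 against 3.79) and above it in TKO (3.72 against 1.12). The fitted difference, which takes both genotypes together, did not pass (0.61, SE 0.53, edgeR adjusted p = 0.36). The single low library was the TKO left ventricle.

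The acetylcholine-activated channel genes *Kcnj3* and *Kcnj5*, whose products join in the channel through which the vagus slows the heart and which are most abundant in atrium, fell in the infarct zone. *Kcnj3* was at 55.8 and 48.4 CPM in the WT and TKO left ventricle, 11.6 and 22.4 CPM in the infarct zone, 40.6 and 59.8 CPM in the border zone, and 76.4 and 69.8 CPM in the remote zone. The remote zone was the highest region for *Kcnj3*, beside *Myl7*, *Sln*, and *Myl4*, whose part in this was not tested. *Kcnj3* fell by 1.67 against the left ventricle (SE 0.29, edgeR adjusted p = 0.0038) and by 2.16 against the remote zone (SE 0.29, edgeR adjusted p = 0.0031). *Kcnj5* fell by 1.37 and 1.55 in the same comparisons (SE 0.17 in both, edgeR adjusted p = 0.0014 and 0.0018). *Kcnj6*, a neuronal subunit, had 5 to 26 counts.

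Among the tandem-pore leak channels, 4 of 7 genes were tested, of which *Kcnk3* fell, *Kcnk6* and *Kcnk13* rose, and *Kcnk2* did not pass. *Kcnk3* was at 266 and 309 CPM in the WT and TKO left ventricle, 64.0 and 112 CPM in the infarct zone, 195 and 206 CPM in the border zone, and 219.9 and 238 CPM in the remote zone. The infarct zone lay below the rest without overlap, with a fall by 1.74 (SE 0.20, edgeR adjusted p = 0.0013). *Kcnk6* rose by 1.25 (SE 0.18, edgeR adjusted p = 0.0020), from 5.84 and 5.29 CPM to 14.7 and 11.9 CPM. *Kcnk13*, which microglia and other myeloid cells express, rose by 1.84 (SE 0.37, edgeR adjusted p = 0.0065). Its levels went from 1.06 (WT) and 0.425 (TKO) CPM (29 and 11 counts) to 2.77 and 2.32 CPM (117 and 83 counts). *Kcnk2*, a stretch-activated leak channel, had a log2 difference of -0.0024 between infarct zone and left ventricle (SE 0.28), and *Kcnk1* had 17 to 41 counts per library.

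The calcium- and sodium-activated channels held a gene that was almost undetected outside the infarct zone. *Kcnn4*, the calcium-activated channel of leukocytes, fibroblasts, and other non-excitable cells, had 45 counts in the WT and 34 in the TKO infarct zone, a single count in the WT border zone, and 0 in each of the other 5 libraries. With a floor of 3 counts per library, the infarct zone was at least 9.72-fold higher than the left ventricle in WT and at least 8.21-fold higher in TKO. *Kcnt2*, a sodium-activated channel, was at 4.01 and 3.32 CPM in the WT and TKO left ventricle, 21.0 and 15.3 CPM in the infarct zone, 7.63 and 5.43 CPM in the border zone, and 6.84 and 4.72 CPM in the remote zone. In each region the WT library was the higher, and *Kcnt2* rose by 2.30 (SE 0.14, edgeR adjusted p = 0.00029). *Kcnn3* rose by 1.21 (SE 0.41, edgeR adjusted p = 0.0435), a call that was lost with only the 4 libraries of these regions or with no filter on low counts and was not made against the remote zone by edgeR (1.19, edgeR adjusted p = 0.0504), though it was by DESeq2. *Kcnn2*, the main calcium-activated channel of cardiac muscle, was at 9.38 and 9.42 CPM in the WT and TKO left ventricle and 3.62 and 8.84 CPM in the infarct zone, and passed only against the remote zone (-1.04, SE 0.29, edgeR adjusted p = 0.026), where it was lost with total counts alone. *Kcnn1* (24 to 55 counts; -1.13, SE 0.42) did not pass. *Kcnmb1*, the accessory subunit of the large-conductance channel in smooth muscle, ranged from 1.86 to 3.64 CPM with the highest values in the infarct zone (0.69, SE 0.27, edgeR adjusted p = 0.069), its pore subunit *Kcnma1* had 0 to 20 counts, and *Kcnmb4* had 3 to 23.

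Of 7 electrically silent subunits, which form no channel alone and alter the delayed rectifier pores they join, 2 were tested and both fell, while the other 5 had 0 to 34 counts per library. *Kcnv2* had the largest fitted fall of the 40 tested genes: it was at 15.7 and 11.9 CPM in the WT and TKO left ventricle, 2.34 and 3.78 CPM in the infarct zone, 5.91 and 10.6 CPM in the border zone, and 9.69 and 12.3 CPM in the remote zone, a fall by 2.23 (SE 0.31, edgeR adjusted p = 0.0019). The WT left ventricle was its highest library. *Kcng2*, at 91.8 and 128 CPM in the WT and TKO left ventricle, fell by 1.21 (SE 0.19, edgeR adjusted p = 0.0025) to 36.4 and 59.1 CPM. Of the other voltage-gated genes, *Kcna6* (27 to 42 counts), *Kcnc1* (46 to 87 counts), and *Kcnh7* (30 to 65 counts) did not pass.

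The falls of the muscle genes lay on both sides of the median fall of the cardiomyocyte markers. The median log2 difference of the 8 markers was -2.13 in WT and -1.04 in TKO between infarct zone and left ventricle. *Kcnv2* lay below this median by 0.59 in both genotypes, *Kcnip2* by 0.56 in WT and 0.20 in TKO, and *Kcnd2* by 0.45 and 0.17. The 8 markers did not fall alike. In WT, the marker *Myh6* fell further than these genes, from 8921 to 1072 CPM, and the other markers fell less. In TKO, the marker *Tnni3* fell further than *Kcnip2* and *Kcnd2*, from 4245 to 1570 CPM, and no marker fell as far as *Kcnv2*. In contrast, *Kcnh2* lay above it by 0.96 in WT and 0.49 in TKO. Of the 40 genes, 35 lay above and 5 below the marker median in WT, and 29 above and 11 below in TKO. Of all genes, 98.2% lay above it in WT and 93.3% in TKO. The part of cell composition in these differences was not tested.

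Of the 34 genes that were not tested, 12 had both infarct zone libraries above the other 6 (32.1% of all genes with a count that were not tested). Besides *Kcnn4*, *Kcnj10*, and *Kcne3*, these included *Kcnq3*, a neuronal subunit. *Kcnq3* had 73 and 72 counts in the WT and TKO infarct zone (1.73 and 2.01 CPM). It had 23 and 11 counts in the left ventricle (0.839 and 0.425 CPM). In the border and remote zones it had 3 to 19 (0.0986 to 0.617 CPM). *Kcna3*, the voltage-gated channel of T lymphocytes, had 15 and 10 counts in the infarct zone and 0 to 7 elsewhere. The summed leukocyte and fibroblast markers given above were also highest in the infarct zone, and their part was not tested.

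Genes outside the definition that bind, traffic, or regulate these channels were taken from a list of 26, of which 22 were tested. In the infarct zone, 15 fell and 1 rose against the left ventricle, compared with 28.6% and 28.2% of all genes. Among those that fell were the pacemaker channels *Hcn2* (-1.70, edgeR adjusted p = 0.0020) and *Hcn4* (-1.32, edgeR adjusted p = 0.0014). The channel accessory gene *Lrrc52* (-1.84, edgeR adjusted p = 0.0046) and the membrane scaffold gene *Cav3* (-1.27, edgeR adjusted p = 0.0035) also fell. So did the transcription factors *Irx3* (-1.15, edgeR adjusted p = 0.0018), *Irx5* (-0.89, edgeR adjusted p = 0.036), *Klf15* (-0.94, edgeR adjusted p = 0.013), and *Tbx5* (-1.09, edgeR adjusted p = 0.0022). Against the remote zone, 14 fell and 1 rose, compared with 24.8% and 24.6% of all genes. The gene that rose there was *Rest*, a transcriptional repressor (0.48, edgeR adjusted p = 0.039), a call lost with DESeq2, with no filter on low counts, and with only the 4 libraries of these regions. The products of *Irx5* and *Klf15* are known to control transient outward channel genes. The gene that rose was *Etv1* (0.36, edgeR adjusted p = 0.027), a factor of fast-conducting muscle, and this call was lost with DESeq2, with no filter on low counts, and with only the 4 libraries of these regions. With total counts alone, *Klf15*, *Irx5*, *Nedd4l*, *Ank2*, and *Ank3* had a negative sign and did not pass, and *Amigo1*, which had passed at -0.48, was at 0.20.

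Fewer differences passed in the border and remote zones than in the infarct zone. No potassium channel gene passed the edgeR test in the border zone, where 0.715% of all genes did, and 8 of 40 had an unadjusted p under 0.05 (17.9% of all genes). The genes nearest to a call were *Kcnj15* (1.69, SE 0.25, edgeR adjusted p = 0.053), *Kcne4* (1.16, SE 0.19, edgeR adjusted p = 0.063), and *Kcnt2* (0.82, SE 0.14, edgeR adjusted p = 0.069). DESeq2 called these 3, among 576 of all 12999 genes. The border over left ventricle ratio of *Kcnj15* was 4.43 in WT (3.45 to 5.77) and 2.20 in TKO (1.58 to 3.09). *Kcnip2* held 0.618 of its left ventricular level in the WT border zone (0.592 to 0.645) and 0.941 in the TKO border zone (0.904 to 0.979), and *Kcnd2* 0.720 (0.633 to 0.819) and 1.12 (1.0002 to 1.25). In the remote zone, no gene passed among the 40 and 0% did among all genes. An unadjusted p under 0.05 was found for 3 of 40 (10.6% of all genes), and DESeq2 called 1 (162 of all 12999 genes). That gene was *Kcne1*, at 3.52 times the left ventricular level in WT (2.67 to 4.70) and 1.77 times in TKO (1.33 to 2.37), with a fitted difference of 1.32 (SE 0.27, edgeR adjusted p = 0.28). *Myl7*, *Sln*, and *Myl4* were highest in the same 2 libraries, and their part in this was not tested. *Kcnip2* was at 0.732 of the left ventricle in the WT remote zone (0.703 to 0.763) and at 0.9998 in TKO (0.961 to 1.04).

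Between genotypes, no potassium channel gene passed across regions. This comparison takes the 4 regions as blocks. The 3 zones were dissected from infarcted hearts and may share mice, so they may not be independent replicates, and the p-values, of DESeq2 too, bear on these libraries only. edgeR called 0 of the 40 genes (0.138% of all genes), whereas 14 had an unadjusted p under 0.05 (16.2% of all genes). DESeq2, which called 342 of all 12999 genes, called *Kcnh2* (0.51, adjusted p = 0.017) and *Kcnj15* (-0.97, adjusted p = 0.000867). In edgeR these had differences of 0.50 (SE 0.12, adjusted p = 0.19) and -0.98 (SE 0.17, adjusted p = 0.16). TKO was the higher in all 4 regions for 10 of the 40 genes (13.2% of all genes) and the lower in all 4 for 7 (13.5%). The 5 highest of the former were *Kcnj11*, *Kcnd2*, *Kcnn2*, *Kcnh2*, and *Kcna6*. The 5 lowest of the latter were *Kcnj15*, *Kcne4*, *Kcnk13*, *Kcnt2*, and *Kcnab1*.

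**Figure D3:**
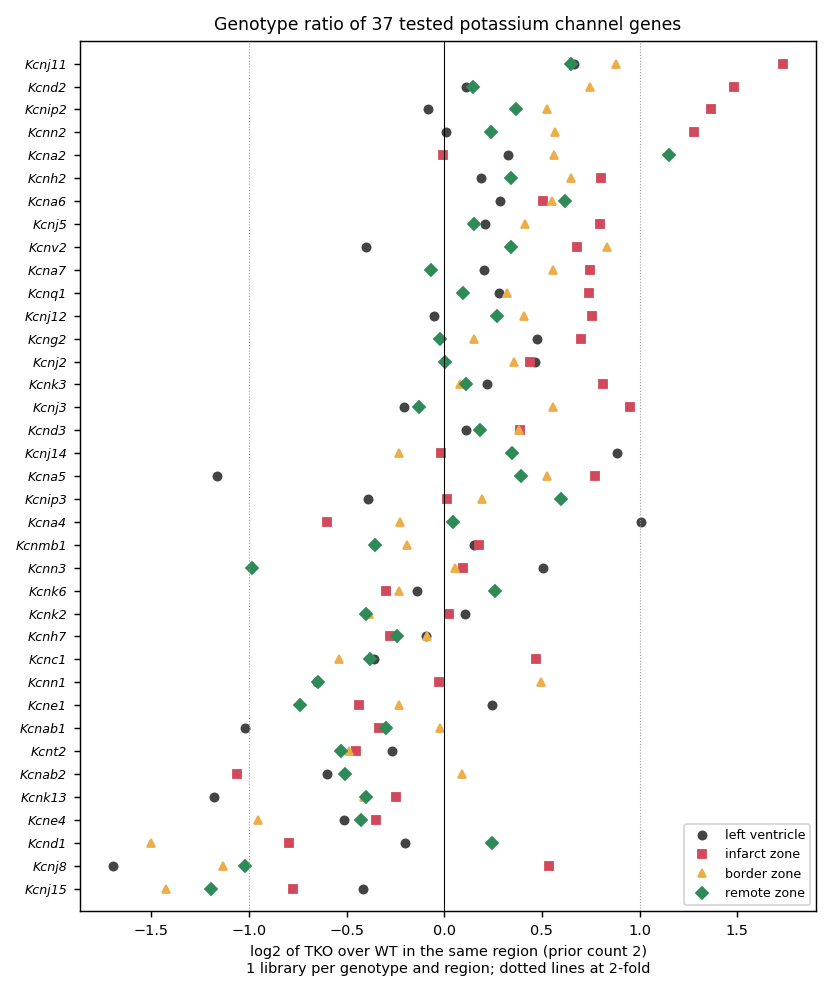
The log2 ratio of TKO over WT (x axis) of 37 of the 40 tested potassium channel genes in each of the 4 regions (symbols; 1 library per genotype and region, no error bars; dotted lines at a 2-fold difference). The infarct zone ratios of *Kcnj11*, *Kcnd2*, and *Kcnip2* lie highest, and all 4 ratios of *Kcnj15* lie under 0.

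In the infarct zone, *Kcnip2*, *Kcnd2*, and *Kcnj11* were higher in TKO than in WT. A difference of at least 2-fold was reached by 6 of the 40 genes there (3.87% of all genes), 5 of them higher in TKO (2.42% of all genes), with *Kcnj11*, *Kcnd2*, *Kcnip2*, and *Kcnn2* among these, and *Kcnab2* lower. With total counts alone, 3 were higher and 3 lower, and the share of all genes in that setting is not given here. TKO had 2.58 times the WT infarct zone level for *Kcnip2* (95% interval from counting error, 2.41 to 2.76), 2.83 for *Kcnd2* (2.31 to 3.48), and 3.75 for *Kcnj11* (1.92 to 7.88). In the border zone these ratios were 1.44 (1.38 to 1.502), 1.68 (1.49 to 1.90), and 1.91 (1.15 to 3.25). In the left ventricle, *Kcnip2* was at 0.945 (0.909 to 0.984) and *Kcnd2* at 1.08 (0.957 to 1.22), a difference that was not detectable at this depth for *Kcnd2*. The median ratio of the 8 cardiomyocyte markers was 0.903 for left ventricle, 2.04 for infarct, 1.29 for border, and 1.17 for remote zone. On the log2 scale, *Kcnip2* lay above this median by 0.34 in the infarct zone, *Kcnd2* by 0.46, and *Kcnj11* by 0.71. There, 5 of the 40 genes lay above the median and 35 below it, and 2.18% of all genes lay above it. The 8 markers varied. *Myh6*, at 1072 CPM in the WT and 3654 CPM in the TKO infarct zone, had a higher ratio than *Kcnip2* and *Kcnd2*, and the other markers had lower ratios. How much of the genotype differences goes with the content of cardiomyocytes was not tested.

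**Figure D4:**
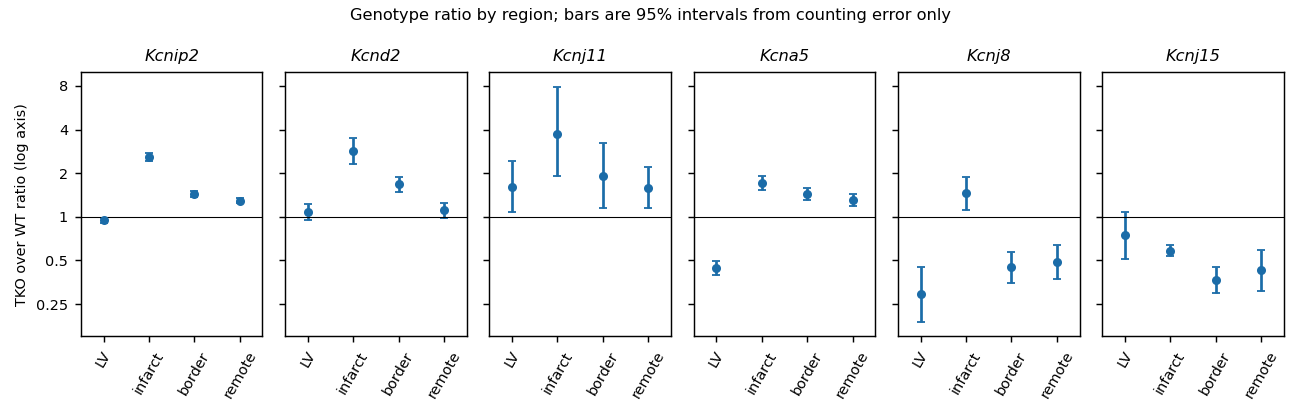
TKO over WT ratio (y axis, log scale) by region (x axis; LV, left ventricle) for 6 genes, with 95% intervals that cover counting error only. *Kcnip2* and *Kcnd2* peak in the infarct zone, *Kcna5* is at 0.446 in the left ventricle and above 1 in the other regions, and *Kcnj8* is above 1 in the infarct zone only.

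In the other regions, differences of at least 2-fold were found for 5 genes in the left ventricle (5.51% of all genes), 3 genes of the border zone (4.48%), and 3 genes of the remote zone (3.53%). In the left ventricle, *Kcnj8*, *Kcna5*, *Kcnk13*, and *Kcnab1* were lower and *Kcna4* higher in TKO. In the border zone, *Kcnj15*, *Kcnd1*, and *Kcnj8* were lower. In the remote zone, *Kcnj15* and *Kcnj8* were lower and *Kcna2* was higher. The ratio of *Kcnj15* was 0.744 in the left ventricle (0.511 to 1.07), 0.585 in the infarct zone (0.537 to 0.636), 0.369 for the border zone (0.300 to 0.451), and 0.428 for the remote zone (0.306 to 0.590). *Kcnj8* had ratios of 0.295 (0.188 to 0.449), 1.46 (1.12 to 1.90), 0.451 (0.351 to 0.576), and 0.487 (0.370 to 0.638) in the same order, so the infarct zone had the opposite direction to the other 3 regions. The departure of the infarct zone for *Kcnj8* did not pass (1.83, SE 0.45, edgeR adjusted p = 0.41). In the same order, the median TKO over WT ratio of 6 smooth muscle and pericyte markers was 0.917, 0.713, 0.999, and 0.966. In the infarct zone these markers were split, with 2 higher in TKO and 4 lower. *Rgs5* was at 304 CPM in the WT and 395 CPM in the TKO infarct zone, and *Myh11* at 97.8 and 53.7 CPM. The median ratio of the 6 fibroblast markers was 1.05, 0.816, 0.568, and 0.690 in the same order of regions.

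Whether the genotype difference of a region departed from that of the other 3 was tested for the left ventricle and the infarct zone. In the left ventricle, 1 of the 40 genes passed (0.646% of all genes), and this was *Kcna5*, with a departure of -1.73 (SE 0.18, edgeR adjusted p = 0.041). The TKO over WT ratio of *Kcna5* was 0.446 in the left ventricle (0.398 to 0.499), 1.71 in the infarct zone (1.52 to 1.92), 1.44 for the border zone (1.31 to 1.58), and 1.31 for the remote zone (1.20 to 1.45). In the infarct zone, edgeR called 0 of the 40 genes (0.00769% of all genes), 8 had an unadjusted p under 0.05 (7.83% of all genes), and DESeq2 called *Kcnip2* (1.10, adjusted p = 0.0068) and *Kcnk3* (0.68, adjusted p = 0.014). In edgeR the departures were 1.10 (SE 0.27) and 0.67 (SE 0.15), both with an adjusted p of 0.41. Each such test rests on 1 TKO and 1 WT library of the region.

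Likeness of pattern was described by Pearson's r of log2 CPM over libraries, which share the split between infarct zone and other regions. Over the 8 libraries, *Kcnip2* was most like *Kcnj12* (r = 0.989) and *Kcnd2* (0.989), and *Kcnj2* was most like *Kcnk3* (0.971), *Kcnd3* (0.961), and *Kcnj5* (0.944). *Kcnn4* was most like *Kcnk6* (0.963), *Kcnab1* (0.935), and *Kcnj10* (0.933). Over the 6 libraries outside the infarct zone, *Kcnv2* was the most like *Kcnip2* (0.949) and *Kcnk3* again the most like *Kcnj2* (0.885).

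Exons of 26 of the 74 genes share bases with another gene, for 25 of them on the opposite strand, and 10 of the 25 genes called in the infarct zone against the left ventricle are among these, *Kcnj15*, *Kcnj3*, *Kcnk3*, and *Kcnq1* included. Whether the counting used strand is not stated, so reads within the shared bases cannot be told apart. These were 333 of the 5705 bases of the longest transcript for *Kcnj15*, 1621 of 5215 for *Kcnj3*, 229 of 3811 for *Kcnk3*, and 121 of 3029 for *Kcnq1*.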

How the data were processed

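Total RNA of the 8 heart libraries was sequenced in bulk. Per the labels, the authors trimmed reads with Trim Galore 0.6.5, quantified transcripts with kallisto 0.46 against an mm10 transcriptome, and used edgeR 3.34.1, and the deposited values are gene-level estimated counts given as whole numbers for 16994 genes. Whether counting used strand is not given in the sources used here.

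The 12999 genes whose mean reached 1 CPM were fitted with edgeR 4.0.16 in R 4.3.3 (TMM scaling, quasi-likelihood test, region and genotype as terms, 3 residual degrees of freedom, Benjamini-Hochberg adjustment over all 12999 genes). Departures of 1 region were fitted as an interaction. With 1 library per genotype and region, regions or genotypes serve as replicates. Ratios of libraries carry exact Clopper-Pearson 95% intervals that cover counting error only. Folds of at least 2 were counted after a prior count of 2, and the floor was 3 counts. Scripts used Python 3.11.15 and were tested on simulated data. The alternatives were DESeq2 1.42.0, scaling by total counts or DESeq2 size factors, leaving out mitochondrial genes, other filters on low counts, and fits on fewer libraries. Named genes were the fixed list of repolarizing currents, every potassium channel or partner gene that passed a test, and the 5 highest and 5 lowest by infarct zone difference and by genotype ratio of shared sign. *Kcnq3*, *Kcna3*, *Kcnj10*, *Kcnj6*, *Kcnip1*, *Kcnip4*, *Kcna6*, *Kcnc1*, and *Kcnh7*, where named, were added after their values were seen. The genes and lists were chosen with earlier results of these data known. Values of some genes that enter the counts are not reported here. Promoter sequences are from RefSeq (GRCm38.p6) and gene models from GENCODE.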

Additional observations from a re-analysis of the deposited data

Results flagged for a closer look

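*Kcna5* stood out because the difference between TKO and WT was not alike in left ventricle and the other 3 regions, with a departure of -1.73 on the log2 scale (SE 0.18, edgeR adjusted p = 0.041). The counts were 1045 in WT and 440 in TKO for the left ventricle, 498 and 719 for the infarct zone, 750 and 1040 for the border zone, and 771 and 1003 for the remote zone. TKO was the lower in the left ventricle and the higher in each of the other 3 regions. The edgeR adjusted p ranged from 0.0028 to 0.042 over the edgeR alternatives, and the departure rests on a single library per genotype in the left ventricle.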

How the results depend on the processing

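All 25 calls of infarct zone against left ventricle and all 24 against remote zone had the same sign under the alternatives run for them. Of the 25, 22 passed with total counts alone and 22 with only the 4 libraries of these regions, and of the 24, 21 and 23 passed. With total counts alone, *Amigo1* turned to 0.20 against the left ventricle and 0.26 against the remote zone. Across regions, the number of genes called for genotype was 2 with DESeq2 (342 of all 12999 genes) and 1 with total counts (56). For border zone against left ventricle it was 3 with DESeq2 (576 of all 12999 genes) and 2 with total counts (200). It was 1 with at least 10 counts in every library (128 of 12897 genes). DESeq2 called 1 gene for remote zone against left ventricle (162 of all 12999 genes). With no filter, 15, 15, 13, and 11 of 74 genes differed at least 2-fold between genotypes in left ventricle, infarct, border, and remote zone. The share of all genes without the filter is not given here. The median log2 ratio of TKO over WT was 0.41 in the infarct, 0.17 in the border, and -0.0076 in the remote zone, and became 0.12, 0.076, and -0.025 with total counts and 0.42, 0.19, and -0.00026 with DESeq2 size factors. The median log2 difference was -0.74 in WT and -0.27 in TKO for infarct zone against left ventricle, -1.01 and -0.52 against remote zone, -0.080 and 0.11 for border zone, and 0.22 and 0.15 for remote zone against left ventricle. The cause of these shifts was not tested. The genotype comparison across regions already pairs TKO with WT within each region, and no further pairing can be made with 1 library per genotype and region. Genes with few counts, such as *Kcnj11* and *Kcnn4*, have wide intervals.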
